A study of Mus musculus with 12 samples.

Results

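The stefin A gene cluster of the mouse was followed in AML246 leukemia cells over 6 days of doxycycline (Dox). The set held 7 genes of the 27179 in the count files: Csta3, Stfa1, Stfa2, Stfa2l1, Stfa3 and Cstdc4, which lie together on chromosome 16, and Cstb, the stefin B gene on chromosome 10. They were taken by symbol, matched through the Entrez identifiers of the files, and had been listed with their levels in these 12 libraries known, so their levels are given as a description without a test. AML246 is 1 mouse acute myeloid leukemia of C57BL/6 strain, named in the series title as p53-/- and shPU.1, grown in recipient mice and sorted from their bone marrow by GFP. Loss of p53 and the hairpin against PU.1, a myeloid transcription factor encoded by Spi1, were shared by all groups, and Dox shut the GFP-linked hairpin off. The groups were untreated cells (GFPhigh), Dox day 2 (GFPhigh-mid), Dox day 4 (GFPmid) and Dox day 6 (GFPlow), with 3 libraries each. The GFP gate moved with the day, and no Dox-treated cells without the hairpin were analysed here, so time, gate and Dox itself cannot be told apart. Replicates are called technical in the titles of the samples, whereas the design text names triplicate mice, so the spread below is that between these samples and may be technical.

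Stefins are small cytosolic inhibitors of the papain family of cysteine proteases, to which cathepsins B, H, L and S belong. They carry no secretion signal and bind the active site of proteases that reach the cytosol, unlike the secreted type 2 cystatins such as cystatin C. Humans carry a single stefin A gene, while the mouse has a row of copies, and stefin A transcripts are known from mouse neutrophils and bone marrow. Stefin B is expressed in most cell types.

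Total counts ran from 4918920 to 7356166 per library, where 3 counts corresponded to 0.393 to 0.640 CPM (counts per 1e+06 counts of the TMM-scaled library). Such limits cover counting error only. Spi1 lay between 54.2 and 67.5 CPM in untreated cells, 98.8 and 123 CPM after 2 days, 244 and 269 CPM at day 4, and 438 and 497 CPM at day 6, so the restored gene followed the labels. Day 6 replicate 2 stood apart from the other 2 day 6 libraries. Its counts differed from theirs with 44.1 and 38.3 times the variance of counting error, against 4.76 times between replicates 1 and 3, and the fold changes printed here that move by over 1.5-fold without it are given without it as well. Its 14 monocyte and macrophage genes summed to 9269 CPM, against 4005 and 4123 CPM in replicates 1 and 3.

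The 6 clustered genes lay within 299 kb of chromosome 16, between positions 36156811 and 36455392 (RefSeq gene models, GRCm38, the build the submitters name as mm10), in the order Stfa2l1, Cstdc4, Csta3, Stfa1, Stfa2 and Stfa3. Another 5 genes of the family, Csta1, Csta2, Cstdc3, Cstdc5 and Cstdc6, lay beside or among them. The copies are close in sequence, which bears on how reads can be assigned. Over the coding bases, identity between pairs of the 6 clustered members ran from 74.8% to 96.4% with a median of 79.9%, and Stfa2 and Stfa2l1 were the closest pair. Stfa1 was 97.9% identical to Cstdc5, and Cstdc4 was 96.9% identical to Csta2. Cstb was 56% to 62.7% identical to the 6. Of all stretches of 50 bases in the coding transcript, 35.6% in Cstdc4, 26.9% in Stfa1, 24.6% in Stfa2l1 and 15.9% in Stfa2 occurred without a mismatch in a transcript of another gene. No such stretch was found in Csta3, Stfa3 or Cstb, so their counts are the least exposed to shared reads. The submitters' notes used here do not state the read length or the treatment of reads with several matches, and the split of counts among the other copies is uncertain.

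The sequence before the transcription start was compared because the members moved together. The 250 bases before the RefSeq start are shown for Stfa2l1 (chr16:36156561-36156810, plus strand), Cstdc4 (chr16:36183962-36184211, plus strand) and Stfa3 (chr16:36455393-36455642, minus strand), 5′ to 3′ along the gene. Capitals mark GGAA on either strand, the core letters that PU.1 and other ETS factors bind, and TTTAAAA.
Stfa2l1: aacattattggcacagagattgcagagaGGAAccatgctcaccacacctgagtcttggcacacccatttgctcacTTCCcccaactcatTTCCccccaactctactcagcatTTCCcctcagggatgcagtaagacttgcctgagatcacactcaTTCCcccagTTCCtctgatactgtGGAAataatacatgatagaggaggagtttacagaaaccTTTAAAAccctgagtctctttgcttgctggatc
Cstdc4: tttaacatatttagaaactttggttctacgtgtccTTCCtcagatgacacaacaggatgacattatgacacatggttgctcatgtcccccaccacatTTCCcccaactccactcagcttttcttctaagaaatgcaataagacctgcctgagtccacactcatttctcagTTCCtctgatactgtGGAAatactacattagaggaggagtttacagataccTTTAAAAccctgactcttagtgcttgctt
Stfa3: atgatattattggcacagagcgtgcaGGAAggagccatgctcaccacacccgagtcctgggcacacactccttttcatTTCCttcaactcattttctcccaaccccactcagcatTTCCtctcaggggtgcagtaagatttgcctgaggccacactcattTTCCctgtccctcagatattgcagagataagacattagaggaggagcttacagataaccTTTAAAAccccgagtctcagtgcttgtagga
The letters TTTAAAA began at position -33 in Stfa2l1, -31 in Stfa3, -30 in Stfa1 and -29 in Stfa2 and Cstdc4, counted back from the start, and at -77 in Csta3, whose model holds little beyond coding sequence. On the gene's strand within the last 60 bases, 0.969% of 27025 RefSeq promoters held these letters. GGAA occurred 4 to 7 times per promoter in these 6 genes, and at least 1 time in 93.4% of all promoters. The number of matches per promoter was not counted over all promoters, so whether 4 to 7 is unusual is not known. Of the other family genes in the promoter table, Csta2, which changed by 4.94 on the log2 scale at day 6, had 0 matches to GGAA and none to TTTAAAA, and Cstdc5, which changed by 4.69, had 4 matches to GGAA and TTTAAAA at -9. Of their 50-base stretches, 39.2% in Csta2 and 48.9% in Cstdc5 occur in transcripts of other genes, so both changes may include shared reads. GAGGAAG, which contains GGAA, was found in Stfa1 and Cstdc4 and in 10.4% of all promoters, searched on both strands. The promoters of Stfa2l1 and Stfa2 were 89.4% identical, those of Cstdc4 and Stfa3 68.7%. A match of letters is a description of the sequence and not a measured binding site.

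The 6 clustered genes together were a minor transcript group in untreated cells and abundant at day 6. Their summed level in replicates 1, 2 and 3 was 64.5, 48.0 and 15.4 CPM before Dox, 7.44, 17.6 and 183 CPM at day 2, 99.3, 344 and 319.7 CPM at day 4, and 3063, 2974 and 1116 CPM at day 6. The day 6 libraries lay above all others, the day 4 libraries lay above all untreated libraries, and the day 2 libraries straddled the untreated ones. The means were 42.6 ± 25.0 CPM, 69.3 ± 98.6 CPM, 254 ± 135 CPM and 2384 ± 1099 CPM in time order (SD, n = 3 each). Day 6 thus stood 55.9-fold above untreated and 9.37-fold above day 4, and the ratio to untreated was 5.97 at day 4 and 1.63 at day 2. At day 6 the sum took 0.225%, 0.252% and 0.0835% of all counts. Without day 6 replicate 2 the day 6 ratio was 49.0, and over all single omissions it ran from 42.4 to 75.2. The day 2 ratio rests on replicate 3 alone: without that library the sum averaged 12.5 CPM at day 2, against 42.6 CPM in untreated cells, a ratio of 0.293. With the other 5 family genes added, which keeps reads shared within the family in the sum, day 6 averaged 4058 CPM and untreated cells 107 CPM, a ratio of 37.8.

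**Figure D1:**
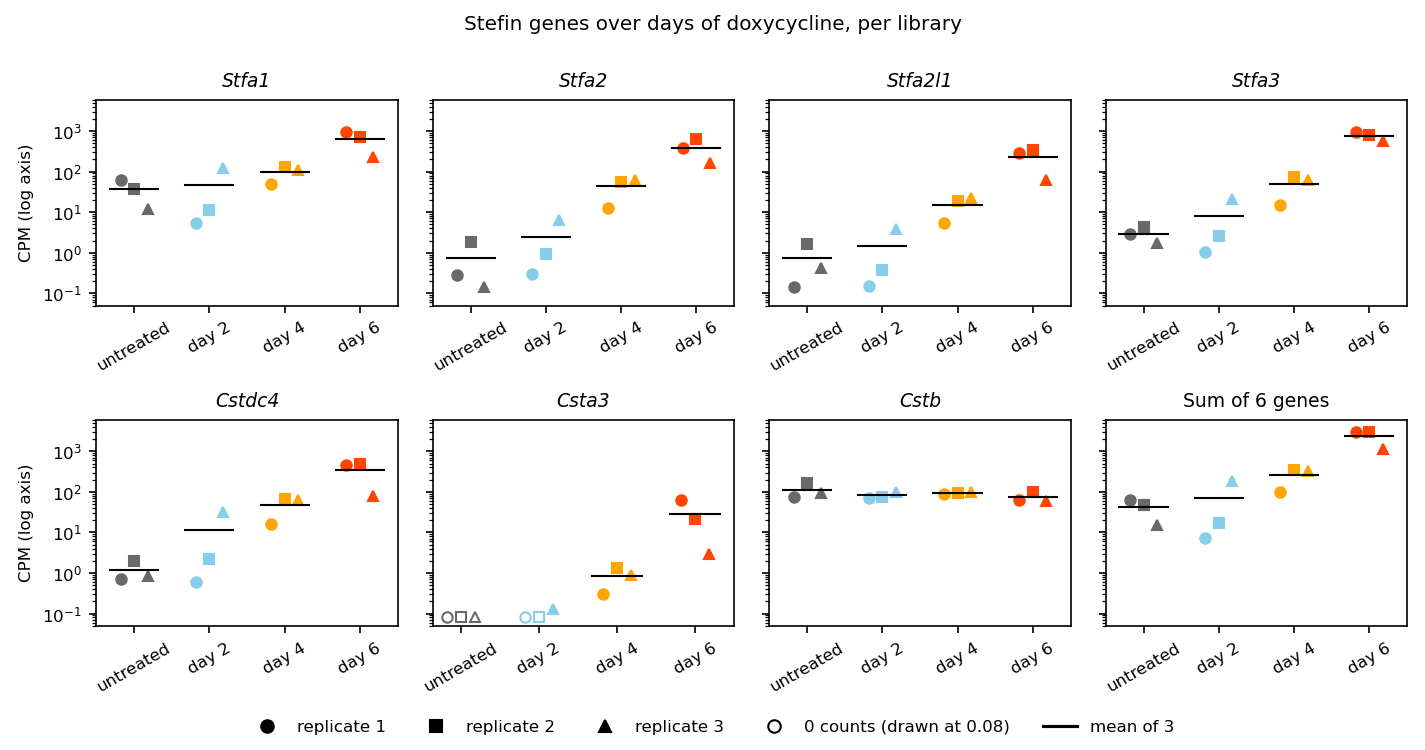
Level of each stefin gene and of the 6 clustered genes summed, in CPM on a log axis, by group in time order. Each symbol is 1 library, open symbols are libraries with 0 counts and bars are means of 3. The chromosome 16 genes are highest at day 6, with day 2 replicate 3 above the other day 2 libraries, while Cstb stays between 60.7 and 168 CPM.

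Stfa1, the first named of the stefin A copies, had the highest level of the 6 clustered genes before Dox. It had 60.6, 38.3 and 12.2 CPM before Dox, 5.32, 11.5 and 121 CPM at day 2, 49.4, 129 and 109.6 CPM at day 4, and 929, 719 and 226 CPM at day 6. The day 6 libraries lay above all others, and the untreated, day 2 and day 4 ranges overlapped. Its mean at day 6 was 16.9-fold that of untreated cells, the smallest ratio among the 6, and the log2 fold change was 4.08 ± 1.05 (SE). Without day 2 replicate 3 its log2 fold change at day 2 was -2.16, against 0.34 with it. Cstdc5, its near-identical relative, had 92.2, 67.7 and 26.9 CPM untreated, 9.42, 22.0 and 207 CPM at day 2, 83.3, 239 and 186 CPM at day 4, and 2032, 1831 and 947 CPM at day 6. Stfa1 and Cstdc5 differed across the 12 libraries by a root mean square of 0.379 on the centred log2 scale, the least of the 36 pairs compared, but 48.9% of the 50-base stretches of Cstdc5 occur in other genes, so their counts are not independent.

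Stfa2, Stfa2l1, Stfa3 and Cstdc4 were close to the counting floor in untreated cells. Stfa2 had 0.284, 1.81 and 0.144 CPM untreated, 0.304, 0.915 and 6.29 CPM at day 2, 12.9, 53.9 and 63.1 CPM at day 4, and 379, 621 and 165 CPM at day 6. Its day 4 libraries lay above all at day 2 and its day 6 libraries above all at day 4, while day 2 overlapped untreated. Its 520.8-fold ratio of day 6 to untreated rests on 2, 13 and 1 untreated counts, and the log2 fold change of 8.97 ± 1.05 became 10.70 without untreated replicate 2. Stfa2l1, its closest copy, had 0.142, 1.67 and 0.431 CPM untreated, 0.152, 0.366 and 3.93 CPM at day 2, 5.40, 18.8 and 21.9 CPM at day 4, and 282, 334 and 61.3 CPM at day 6. It showed the same order of groups as Stfa2, with a log2 fold change of 8.19 ± 1.03 at day 6, or 9.53 without untreated replicate 2.

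Stfa3, which shares no 50-base stretch with another gene, has counts that are not exposed to such sharing. It had 2.84, 4.32 and 1.72 CPM untreated, 1.06, 2.56 and 20.6 CPM at day 2, 15.5, 74.8 and 62.4 CPM at day 4, and 949, 779.5 and 581 CPM at day 6. Its day 6 libraries differed by no more than 1.63-fold, the least of the 6 genes, and lay above every other library; day 4 lay above untreated but overlapped day 2. The mean at day 6 was 260.1-fold that of untreated cells, a log2 fold change of 8.01 ± 0.94. Cstdc4 had 0.709, 1.95 and 0.862 CPM untreated, 0.608, 2.20 and 31.1 CPM at day 2, 15.9, 65.9 and 61.8 CPM at day 4, and 463, 498 and 79.8 CPM at day 6. Its groups overlapped as those of Stfa3 did, and its log2 fold change at day 6 was 8.18 ± 1.38. Csta2, nearly identical to Cstdc4 in coding sequence, had 64.0, 84.2 and 13.7 CPM at day 6 and 2.55, 1.25 and 1.44 CPM untreated.

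Csta3 was counted in 0 of 3 untreated libraries. It had 0, 0 and 1 counts at day 2, 2, 9 and 6 counts at day 4, and 289, 135 and 15 counts at day 6, which is 61.6, 21.7 and 2.93 CPM. Against the limit set by 3 counts over the untreated group (0.142 CPM), day 6 was at least 203-fold higher and day 4 at least 5.87-fold higher. The day 6 bound rests largely on replicate 1, without which it was 87.0-fold. The day 6 libraries differed among themselves by 21.0-fold, the widest spread of the members at that day. Cstdc6 reached 20.3, 18.3 and 9.18 CPM at day 6 and at most 1.13 CPM untreated, and Csta1 and Cstdc3 had 1 count each in all 12 libraries.

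Cstb did not share this course. It had 73.0, 168 and 95.5 CPM untreated, 71.7, 75.2 and 98.2 CPM at day 2, 86.9, 94.3 and 99.8 CPM at day 4, and 64.4, 97.1 and 60.7 CPM at day 6. The ranges of all 4 groups overlapped, and the log2 fold change at day 6 was -0.60 ± 0.28. Per kilobase of the deposited gene length, on the RPKM scale, Stfa3 and Stfa1 reached 1868 ± 447 and 1495 ± 863 at day 6, Cstb 123 ± 33.2 and Csta3 97.8 ± 102.0 (SD, n = 3 each). Within the family Cstdc5 had the highest day 6 mean on this scale, 3635 ± 1309 RPKM, and in untreated cells Cstb did, at 186 ± 82.6 RPKM, beside 141 ± 74.8 RPKM for Cstdc5 and 88.6 ± 57.9 RPKM for Stfa1. Stfa2 (918 ± 539.7), Cstdc4 (838 ± 560.3) and Stfa2l1 (545 ± 349.8 RPKM) were not separated from each other beyond their spread.

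In the fit over all 12057 genes tested, 6 of the 7 members were called higher at day 6 against untreated (edgeR quasi-likelihood test, adjusted p under 0.05), where 35.0% of genes were called higher. At day 4 the count was 4 (Stfa2, Stfa2l1, Stfa3 and Cstdc4), with 22.1% of genes called higher, and at day 2 it was 0, with 1.45% of genes called in either direction. No member had an unadjusted p under 0.05 at day 2, and DESeq2 called none there. From day 2 to day 4 the count was 3 of 7 (15.0% of genes called higher) and from day 4 to day 6 it was 6 of 7 (23.6%). The members were listed for this pattern, so these counts describe them and support nothing. Csta3 passed the filter on low counts only through its day 6 libraries, so its day 6 calls depend on that choice. With a filter of 5 CPM in 3 libraries it was not tested, and 5 of 6 members were called higher at day 6 against untreated. The median log2 fold change of the 6 clustered genes was 8.18 at day 6 and 4.82 at day 4, or 8.09 and 4.20 with Csta3 at its bound, beside medians of -0.00029 and -0.015 over all genes. The counts from day 2 to day 4 ran from 1 to 5 over single omissions, 5 without day 2 replicate 3, and those from day 4 to day 6 were 4 without any 1 of the day 4 libraries or without day 6 replicate 1 or 2. Cstb, not called at day 6, was called lower there by DESeq2, under scaling by upper quartiles or library totals, with the replicate block, and without untreated replicate 1 or day 6 replicate 2.

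The make-up of the sum changed along with its size. Stfa1 made up 84.3% ± 8.2 of the counts of the 6 genes in untreated cells, 67.7% ± 3.2 at day 2, 40.5% ± 8.1 at day 4 and 24.9% ± 5.1 at day 6 (SD, n = 3 each). Its highest share at day 2, 71.4%, lay below its lowest untreated share, 79.4%, and each later group lay below the one before it. Stfa3 held 36.4% ± 13.7 at day 6 and 8.2% ± 3.5 untreated, and it alone made up 52.0% in day 6 replicate 3. Stfa2 held 1.7% ± 1.8 untreated, 4.2% ± 0.9 at day 2, 16.1% ± 3.4 at day 4 and 16% ± 4.4 at day 6. In day 2 replicate 3, whose sum was 24.6-fold that of replicate 1, Stfa1 held 66.1%, within the range of its day 2 companions. The shares depend on how reads were assigned among copies.

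**Figure D2:**
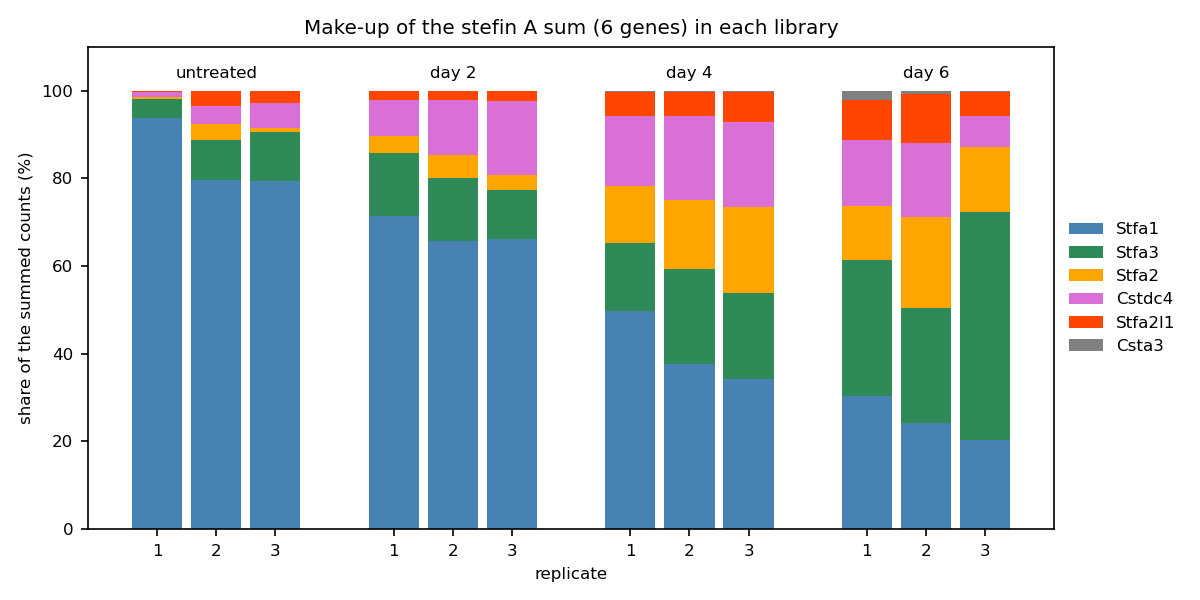
Share of each of the 6 clustered genes in their summed counts, in percent, for each of the 12 libraries in time order. Stfa1 holds 20.3% to 30.3% at day 6 and 79.4% to 93.8% in untreated libraries, and Stfa3 holds 26.2% to 52.0% at day 6.

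The members deviated together from their group's mean, and other gene groups varied between the same libraries. At day 2 all 6 clustered genes were highest in replicate 3, at day 4 all were lowest in replicate 1, and at day 6 all were lowest in replicate 3. The 14 late neutrophil genes shared the first part of that order, with 796, 1029 and 1486 CPM summed at day 2. They had 2339, 3913 and 2617 CPM at day 4, but were lowest in replicate 2 at day 6. The 5 eosinophil markers (Epx, Prg2, Il5ra, Ccr3 and Siglecf) shared the first part as well. These markers had 8.81, 50.3 and 154 CPM summed at day 2 and 47.9, 831 and 453 CPM at day 4. Their sum was 79.5, 26.5 and 61.5 CPM at day 6 and 17.6, 43.6 and 36.3 CPM untreated. The markers did not move alike. Of 4 tested, 2 were called higher and 0 lower at day 6 against untreated, where 35.0% of all genes were called higher. From day 4 to day 6, 1 was called higher (23.6% of all genes) and 2 lower. Epx, eosinophil peroxidase, had 1.67, 19.9 and 87.2 CPM at day 2 and 2.73 to 3.84 CPM at day 6. The part of eosinophil-lineage or neutrophil cells in the day 2 and day 4 stefin levels was not tested. The 10 secondary granule genes, which encode neutrophil granule proteins such as lactoferrin (Ltf), summed to 2825, 3444 and 2949 CPM at day 2, without a high replicate 3. Like the stefins, they were lowest in replicate 1 at day 4, with 12364, 17901 and 17078 CPM. Their day 6 sum was 114384, 66257 and 97287 CPM, lowest in replicate 2 and not in replicate 3. In bulk RNA more cells of a type and more RNA per cell cannot be told apart. Sums of B cell, T and NK cell, erythroid and megakaryocyte markers were at most 3.63, 23.5, 5.71 and 8.46 CPM in any library; the T and NK maximum was in day 6 replicate 2, and the other 11 libraries had at most 4.10 CPM.

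**Figure D3:**
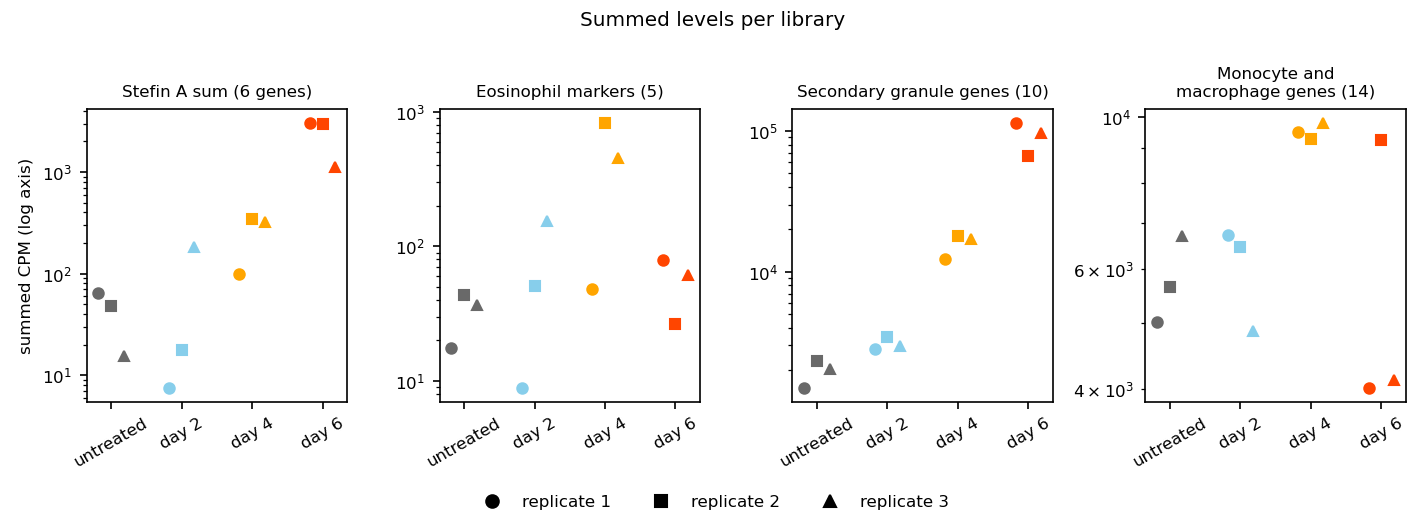
Summed CPM (log axes, different ranges) of the 6 clustered stefins, 5 eosinophil markers, 10 secondary granule genes and 14 monocyte and macrophage genes in each library, in time order. Day 2 replicate 3 is the highest day 2 library in the stefin and eosinophil panels (183 and 154 CPM), and day 6 replicate 2 is the lowest day 6 library in the granule panel and the highest in the monocyte panel.

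Neutrophil genes outside the family rose over the same days. All 10 secondary granule genes tested rose at day 6 (median log2 fold change 6.00) and 7 rose at day 4 (1.82), and all 14 late neutrophil genes rose at day 6 (5.76) and 9 at day 4 (1.25), against untreated cells in the edgeR quasi-likelihood fit, where 35.0% of all genes were called higher at day 6 and 22.1% at day 4. Ltf averaged 9392 ± 3765 CPM at day 6 and 77.1 ± 50.2 CPM untreated, a log2 fold change of 6.93 ± 0.59 (SE, adjusted p = 2.53e-06), but did not pass at day 4 (0.58, adjusted p = 0.349). Without untreated replicate 2 the Ltf changes were 7.61 at day 6 and 1.25 at day 4 (edgeR quasi-likelihood adjusted p = 0.0336), which passed, and those of Chil3 and Ngp at day 6 were 8.34 and 7.88. Chil3, a chitinase-like protein of maturing neutrophils, and Ngp, neutrophilic granule protein, changed by 7.57 ± 0.58 and 7.27 ± 0.81 at day 6 (adjusted p = 1.12e-06 and 1.78e-05). Of the 14 monocyte and macrophage genes, 10 rose and 2 fell at day 6, where 67.9% of all genes were called, and 11 rose at day 4.

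The 6 genes outside the family with the course closest to the stefin A sum were Lin28a, Pilrb1, Pglyrp1, Map3k9, Pilrb2 and Padi4, with root mean square differences of 0.851 to 0.898 on the centred log2 scale over the 12 libraries, where the median of the 8976 genes compared was 2.74. Lin28a, an RNA-binding protein that blocks let-7 maturation, averaged 59.97 CPM at day 6 and 1.55 CPM untreated. Padi4, the histone-citrullinating enzyme of neutrophils, averaged 551 CPM at day 6 and 9.89 CPM untreated. Pglyrp1, a peptidoglycan-binding granule protein, averaged 946 CPM at day 6 and 9.997 CPM untreated. Their day 2 values were highest in replicate 3, as in the stefins, while at day 6 all 6 were lowest in replicate 2 rather than replicate 3. These 6 genes were picked for likeness to the sum over the same 12 libraries. The shared high day 2 replicate 3 therefore follows largely from that choice and supports nothing. The 15 pairs of clustered members differed from each other by 0.590 (Stfa2l1 and Stfa3) to 1.88 (Csta3 and Stfa2) on this scale. Csta3, Stfa2 and Cstdc4 lay 1.32, 1.18 and 0.971 from the sum, further than these 6 outside genes, and Stfa1 lay 0.715 from it.

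Most cysteine proteases of the lysosome were higher by day 4, before the larger step in the stefin sum. In their median, though not each alone, the single stefins differed from their sum in this. The 6 clustered genes had a median log2 fold change of 4.82 by day 4 (4.20 with Csta3 at its bound) and 3.52 from day 4 to day 6. Stfa1 went as the sum did, with 1.38 by day 4 and 2.70 from day 4 to day 6. Stfa3 changed about equally in both, by 4.09 and 3.92. The order is not known for Csta3, which had 0 untreated counts. Of 10 tested, which are cysteine cathepsins and legumain, 6 rose and 1 fell at day 4, and 7 rose and 1 fell at day 6 (edgeR quasi-likelihood test against untreated; 42.4% and 67.9% of all genes were called). The medians of the list were 1.19 and 1.53, beside those near 0 over all genes. At day 2 none passed, with 2 at an unadjusted p under 0.05 and 2 called by DESeq2. Ctss, the cathepsin of antigen-presenting cells, had 525, 1733 and 578 CPM at day 6, 961, 1086 and 1252 CPM at day 4 and 25.9, 54.99 and 31.0 CPM untreated. Its log2 fold change was 4.66 ± 0.52 at day 6 (adjusted p = 1.8e-05) and 4.88 ± 0.52 at day 4 (adjusted p = 5.02e-05). Lgmn, the asparaginyl endopeptidase legumain, which stefins are not known to inhibit, changed by 3.39 ± 0.53 at day 6 (adjusted p = 0.000203) and 3.23 ± 0.52 at day 4 (adjusted p = 0.000753). Ctsc, which activates the serine proteases of granules, rose by 1.77 at day 6 (adjusted p = 0.00156) and 2.51 at day 4 (adjusted p = 0.000471). Without day 6 replicate 2 the day 6 changes were 3.88 for Ctss, 2.58 for Lgmn and 1.09 for Ctsc, each still past the test, and 3 of the 11 proteases then tested, in place of 1 of 10, were called lower.

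Ctsb and Ctsh, lysosomal targets of stefins, rose by 1.30 and 1.77 at day 6 on the log2 scale (edgeR quasi-likelihood adjusted p = 1.91e-05 and 6.19e-06). Ctso rose by 0.49 at day 6 (adjusted p = 0.0019), a call lost when scaled by upper quartiles or by library totals, and Ctsk by 1.81 (adjusted p = 0.00464) at 3.20, 2.09 and 6.83 CPM, or by 1.19 without day 6 replicate 3. Ctsf fell by 4.64 at day 6 (adjusted p = 0.00129), to 0, 3 and 1 counts at day 6, against 63, 8 and 69 counts untreated, and the change was -5.78 without day 6 replicate 2; its fall at day 4 was lost in 10 of the alternatives. Ctsz rose at day 4 (0.63, adjusted p = 0.0162), a call lost with library totals and without untreated replicate 1, and had a log2 fold change of -0.11 at day 6 (adjusted p = 0.616). Ctsl had changes of 0.79 and -0.17 at day 4 and day 6 (adjusted p = 0.0714 and 0.672). Without day 6 replicate 2, Ctsl and Ctsz were called lower at day 6 (-0.75 and -0.41, edgeR quasi-likelihood adjusted p = 0.0101 and 0.00707). Between day 4 and day 6 Ctsl and Ctsz fell, by 0.95 and 0.74 (adjusted p = 0.0342 and 0.00657), and Ctsk rose by 1.58 (adjusted p = 0.0154), in the step in which the stefin sum differed 9.37-fold. Ctss, Ctsc and Lgmn were 2.43-fold or more higher in day 6 replicate 2 than in either other day 6 library, a library in which the monocyte and macrophage genes were also higher.

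**Figure D4:**
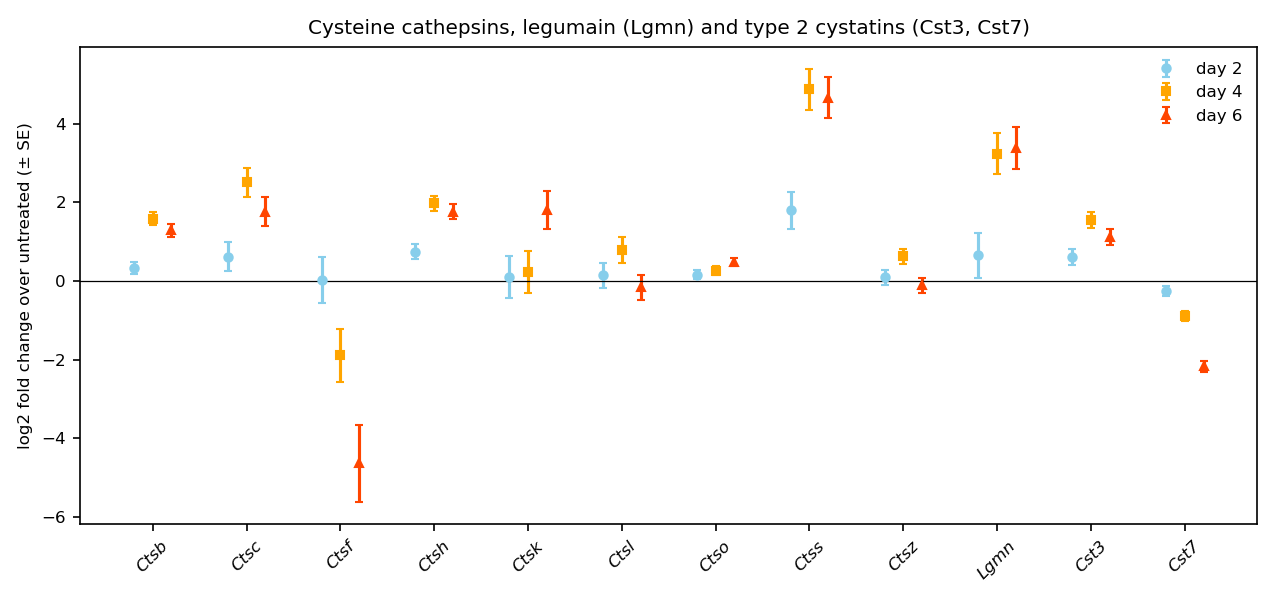
Log2 fold change over untreated, with its standard error, of 10 lysosomal cysteine proteases (cathepsins and legumain) and of 2 type 2 cystatins at day 2, day 4 and day 6 (3 libraries per group). Ctss and Lgmn sit near the same value at day 4 and day 6, Ctsf and Cst7 fall, and Cst7 is lower at day 6 than at day 4.

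Secreted and other inhibitors did not move as a block. Of 15 type 2 cystatins and cystatin-domain proteins, 2 had enough counts to test. Cst3, cystatin C, rose at day 6 (log2 fold change 1.11, edgeR quasi-likelihood adjusted p = 0.000376) and day 4 (1.54, adjusted p = 0.000103), at 244, 467 and 266 CPM at day 6 and 153, 162 and 138 CPM untreated. Cst7, cystatin F, an inhibitor of cathepsin C carried in granules, fell to 87.0, 107 and 101 CPM at day 6, against 413, 455 and 463 CPM untreated (-2.17, adjusted p = 4.2e-08). All 3 day 6 libraries of Cst7 lay below all others. Of 15 other protease inhibitors tested, 6 rose and 4 fell at day 6, near the shares of all genes called there (67.9% in either direction, 35.0% higher). At day 4, 7 rose and 3 fell, above the shares of all genes called there (42.4% in either direction, 22.1% higher). Wfdc17, Wfdc21 and Serpinb10 changed by 4.40, 3.72 and 3.30 at day 6 (adjusted p = 0.00103, 3.07e-06 and 1.5e-07). Wfdc17 had 62.5 CPM in day 6 replicate 2, against 7.68 and 9.76 CPM in the others, and without that library its change was 2.76, below the 3.86 of Wfdc21 and the 3.41 of Serpinb10.

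The genes beside the cluster were compared because they share its stretch of chromosome 16. Of 18 protein-coding genes within 500 kb of the outermost members, 14 were tested: 7 rose and 5 fell at day 6, with a median log2 fold change of 0.48, where 67.9% of all genes were called and 35.0% were called higher. The nearest tested neighbours were Ccdc58, Fam162a and Wdr5b on the side of Stfa2l1, with changes of -1.19, -0.30 and 0.23 (edgeR quasi-likelihood adjusted p = 0.000469, 0.027 and 0.384), and Cd86 on the side of Stfa3. Casr, a calcium-sensing receptor, lies between Stfa3 and Cd86 and had 0 counts in all 12 libraries. Cd86, a costimulatory receptor of antigen-presenting cells, rose at day 6 (3.39, adjusted p = 7.67e-05) but averaged 6.61 CPM there, against 14.5 CPM at day 4, and fell between those days (-1.13, adjusted p = 0.0215). Hcls1, a cytoskeletal adaptor of blood cells, and Parp14 rose by 2.78 and 2.19 at day 6 (adjusted p = 6.16e-09 and 6.08e-05). Parp9, Kpna1, Hspbap1 and Dtx3l rose by 0.72 to 1.16, and Iqcb1, Golgb1 and Slc49a4 changed by -1.38 to -0.59, each past the test (Iqcb1 -2.24 without day 6 replicate 2), while Slc15a2 did not pass (-0.36, adjusted p = 0.287). No flanking gene tested had a log2 fold change at day 6 above that of Stfa1, 4.08, the lowest of the clustered members. At day 4 the picture differed: Cd86 changed by 4.52, above the 1.38 of Stfa1, the 4.09 of Stfa3 and the 4.32 of Stfa2l1, and Hcls1 by 1.78, above Stfa1.

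**Figure D5:**
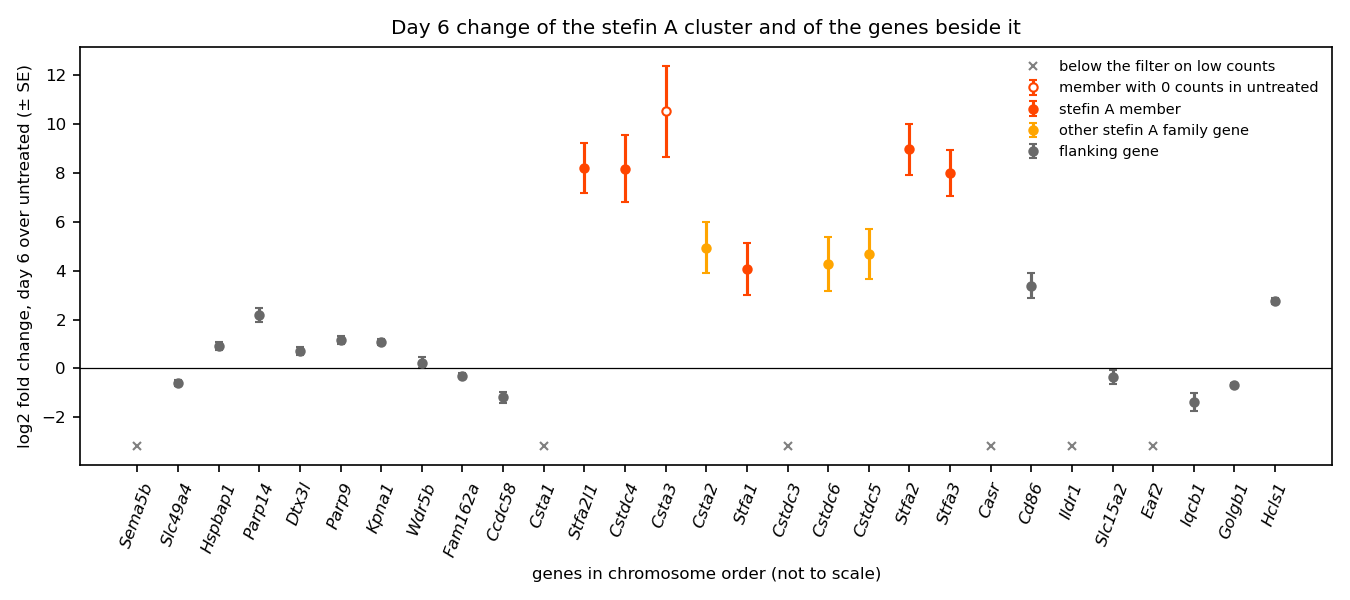
Log2 fold change at day 6 over untreated, with its standard error, of the stefin A members, the other family genes and the genes within 500 kb, in chromosome order (3 libraries per group). The clustered members lie between 4.08 and 10.52, Csta3 (open symbol) with 0 untreated counts so that its value depends on the prior count, and the flanking genes lie between -1.38 and 3.39.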

How the data were processed

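The authors deposited 1 table per library with raw counts and a gene length in bases per Entrez gene, per the file headers. Per the submitters' processing notes, mm10 was the build and featureCounts, CASAVA 1.8.2, limma 3.22.0 and edgeR 3.8.2 were used, in roles the notes do not give. No source used here states the aligner, read length, strand setting or rule for reads with several matches. Identifiers were matched to RefSeq GRCm38.p6 symbols: 25275 of 27179 matched, and the rest held 0.493% to 1.07% of counts. Analysis of the deposited counts used edgeR 4.0.16 under R 4.3.3 (filterByExpr, 12057 genes kept; TMM; robust quasi-likelihood fit of all 12 libraries on group, 8 residual degrees of freedom, two-sided, Benjamini-Hochberg adjusted p under 0.05 over all genes). DESeq2 1.42.0, other scalings and filters, a replicate block and the omission of each library were the alternatives. In data simulated for day 6 against untreated, with 11894 genes tested, the fit recovered 78% of planted 2-fold and 93% of 4-fold changes and called 14 unchanged genes. The simulation changed few genes, equally up and down and none of the lowest, whereas 67.9% of genes were called in the data. It therefore does not measure how the fit performs on the day 6 data. CPM used TMM library sizes, and RPKM the deposited length. The sum adds counts of the 6 chromosome 16 members.

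The members, the 17 other gene lists and the alternatives were chosen with earlier results of these data known. All members, the cathepsins and cystatins tested, the flanking genes tested, up to 3 called genes of the largest change of every other list, and the 6 genes nearest to the stefin sum (at least 10 CPM, centred log2 of CPM plus 0.5) were to be named. For length not all are, and 1 result is not reported here. Ctsg, Ctsd, Ctsa and Elane are named as well, chosen after their values were seen, as were Epx and Ltf. Sequence identity and shared stretches were computed with Biopython 1.88 from GENCODE M21 transcripts. Promoters are from the RefSeq GRCm38.p6 table, which matched 6 of the 7 members, Cstb being the other.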

Additional observations from a re-analysis of the deposited data

How the results depend on the processing

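No fold change of a member that had been called changed sign in any recomputation. Of all 396 recomputed member values, called or not, 14 moved by more than the spread between replicates. Changes that had not been called did change sign. Without day 2 replicate 3 the day 2 changes of Stfa1 and Stfa2 went from 0.34 to -2.16 and from 1.83 to -0.36. Those of Stfa2l1 and Stfa3 went from 1.11 to -1.52 and from 1.52 to -0.75. The summed stefin A log2 ratio to untreated ran from -1.77 to 1.23 at day 2 over single omissions (0.70 with all), from 2.18 to 3.00 at day 4 and from 5.40 to 6.23 at day 6. Genes called higher and lower at day 2 numbered 126 and 49, 281 and 143 by DESeq2, and 27 to 378 and 11 to 225 over single omissions. With library totals 2283 genes were called higher and 6764 lower at day 6, and the median gene shifted by -0.52 (log2). The share of calls that were higher at day 6 was 51.6% with TMM, 37.3% under upper-quartile scaling and 25.2% with library totals, and at day 4 it was 52.2%, 41.2% and 39.1% in that order. Cathepsins called higher at day 2 were 2 by DESeq2, 1 with the replicate block and 0 to 1 over single omissions. Cathepsins called lower at day 4 were 0 without a filter and 0 with the replicate block, and 0 to 1 over single omissions. At day 6 they were 2 with library totals and 1 to 3 over single omissions. Ctso had a log2 fold change of -0.023 at day 6 with library totals. The cause of these shifts was not tested. Of 6456 recomputed values of list genes, 154 lost and 113 gained the call.

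Libraries with the same replicate number correlated by 0.0057 on average in their deviations (-0.17 to 0.29 over 18 pairs), and 4 of 12 were closest to their own number. No pairing by number was seen, but with 3 libraries per group a weak shared effect could be missed. The replicate block moved the members called from day 2 to day 4 from 3 to 1. Depth limits the low members most: untreated levels of Stfa2, Stfa2l1 and Cstdc4 rest on 1 to 14 counts per library, and Csta3 had 0.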

Other observations

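Proteases that stefins do not inhibit diverged at day 6. Ctsg, the neutrophil serine protease cathepsin G, fell to 619, 828 and 739 CPM at day 6, against 4058, 4478 and 4399 CPM untreated (log2 fold change -2.56, edgeR quasi-likelihood adjusted p = 1.34e-08). Ctsd, the aspartic protease cathepsin D, and Ctsa rose by 0.77 and 0.69 (adjusted p = 1.76e-05 and 0.0156). Of the 7 primary granule genes tested, 4 fell at day 6 (Mpo, Elane, Prtn3 and Ctsg) and 2 rose, among them Ms4a3. Of all genes, 67.9% were called there and 35.0% called higher. Mpo, myeloperoxidase, fell by 2.11 (adjusted p = 1.86e-07).

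Mast cell and basophil markers summed to 5.79 to 29.9 CPM and stromal and endothelial markers to 21.1 to 129 CPM across the 12 libraries. Both sums were lower in every day 6 library than in every untreated library. Of the mast cell and basophil markers 3 were tested, and 1 was called higher and 1 lower at day 6 against untreated, so that sum does not describe each marker. Of the stromal and endothelial markers 2 were tested, and 2 were called lower, where 67.9% of all genes were called in either direction.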
